A study of Homo sapiens with 6 samples.

Results

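Small RNAs silence mRNAs through Argonaute proteins, and the 10 genes described here encode the core of that machinery in human cells. They are the 4 Argonaute genes AGO1, AGO2, AGO3 and AGO4, the microRNA processing genes DROSHA, DGCR8 and DICER1, and the silencing partners TNRC6A, TNRC6B and TNRC6C. They make up 10 of the 58288 genes in the deposited count table, and all 10 passed the filter on low counts that left 14415 genes. The set was chosen by name and because AGO2 was higher under both siRNAs, so the differences of these genes from the control libraries are given as a description. Their calls there are counted beside the share of all genes called, with no p printed and nothing read from them.

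The RNA came from the human bladder cancer line T24, in 3 conditions of 2 biological replicates each. NC cells were transfected with a control siRNA, and si-circ235-1 and si-circ235-2 cells each with an siRNA of a different sequence directed at the back-splice junction of circ235, a circular RNA from the CCNY gene. The study asked which mRNAs change when circ235 is depleted, since it describes circ235 as a sponge of miR-330-5p, a microRNA. No untransfected cells were analysed here, so every library, NC included, comes from cells that received a duplex that Argonaute proteins bind. Poly(A) enrichment leaves out circular RNA, and the extent of the knockdown therefore has no value in these counts. By qRT-PCR in this cell line, the study reports more efficient knockdown with the lower-numbered of its siRNAs against the circular RNA. The part of that difference in the results was not tested. The time between transfection and harvest is not given in the sources used here.

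The libraries held 15373992 to 19912893 counts. Replicates of each condition differed by more than sampling noise and were kept as separate samples. The epithelial keratins KRT7, KRT8 and KRT18 were abundant, while EPCAM had 22 to 48 counts in a library and CDH1 at most 6. Of 8 urothelial markers, PPARG had 353 to 1069 counts, KRT20 and UPK3A had 0 in all 6 libraries, and GATA3, KRT5, UPK1A, UPK1B and UPK2 had at most 20. Among leukocyte markers PTPRC and CD3E had 0 counts, and CD14 had 36 to 178. CD14 stood at 2.82 and 2.87 CPM in the NC libraries, 10.98 and 9.94 CPM with si-circ235-1 and 2.12 and 1.72 CPM with si-circ235-2. Endothelial markers reached 41 counts and fibroblast markers 1, and the germ cell markers were at 0. The part of CD14 in the results was not tested.

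A microRNA is transcribed as part of a longer RNA that folds into a hairpin. In the nucleus DROSHA, an RNase III enzyme, cuts the hairpin loose with its RNA-binding partner DGCR8, and after export DICER1 trims it to a duplex. One strand is loaded into an Argonaute protein, pairs with target mRNAs mainly through nucleotides 2 to 8, called the seed, and recruits a TNRC6 protein that brings in enzymes removing the poly(A) tail. Among the human Argonautes, AGO2 is the one known for efficient slicing of fully paired targets, the reaction that siRNAs use.

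The mature miR-330-5p is printed because the study's question turns on it, and its target words were looked up in the members. It lies at chr19:45639049-45639070 on the minus strand of GRCh38.p14 (RefSeq), and capitals mark the seed.
miR-330-5p: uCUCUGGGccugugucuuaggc
The word complementary to the seed, CCCAGAG, occurred 4 times in the 3' UTRs of the members, which were searched on the transcribed strand. The sites are printed on that strand with the word in capitals, from GRCh38 with the UTRs of GENCODE 29.
AGO1, chr1:35922726-35922748: aacctgttccccaagCCCAGAGa
AGO1, chr1:35929896-35929918: ataagaaaattgaagCCCAGAGa
AGO4, chr1:35855113-35855135: gccagtgtttcccagCCCAGAGt
TNRC6B, chr22:40330356-40330378: aaggtgtgtacaactCCCAGAGg
Both AGO1 sites are followed by an A, which makes an 8-nucleotide match. The other 7 members, AGO2 among them, had no such word in a 3' UTR that ran from 935 nucleotides in DROSHA to 16755 nucleotides in AGO3. A match to nucleotides 2 to 7 followed by an A, CCAGAGA, was also searched on the transcribed strand and overlaps the longer word. AGO1, AGO2 and AGO3 each held 2 such matches, those of AGO1 within the sites above, and 17.8% of the tested genes held at least 1. Their 3' UTRs of 10921, 11888 and 16755 nucleotides were long, against a median of 1342 nucleotides in the tested genes. Over the 12143 tested genes with a 3' UTR, 20.5% held CCCAGAG at least once. Per kilobase of 3' UTR the members held 0.0573 matches to CCCAGAG and the tested genes 0.139. A match describes letters, and binding of the microRNA was not measured.

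Levels of different genes are compared as CPM, the counts scaled to a common library size, after TMM scaling, divided by the length of the longest transcript in kilobases. In NC libraries DROSHA stood highest, at 11.8 ± 1.07 CPM per kilobase (SD, n = 2). DGCR8 at 5.82 ± 1.16, AGO2 at 5.04 ± 0.300 and TNRC6A at 4.82 ± 0.443 CPM per kilobase followed, and their order lay within the spread. AGO1 at 1.99, AGO4 at 1.66 and DICER1 at 1.46 CPM per kilobase came next, and AGO4 and DICER1 lay within each other's spread. AGO3, TNRC6C and TNRC6B were lowest, between 0.827 and 0.844 CPM per kilobase, and did not differ beyond their spread. This order rests on the longest annotated transcript of each gene, 5305 nucleotides for DROSHA and 14581 for AGO2. The transcripts made in these cells were not determined. Without division by length, the mean in NC was 73.5 CPM for AGO2 and 62.7 CPM for DROSHA.

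AGO2 (chr8:140520156-140635619, minus strand) was the Argonaute with the most counts in every library. Its level was 70.4 and 76.6 CPM in NC, 125 and 128 CPM in si-circ235-1, and 162 and 186 CPM in si-circ235-2. The 3 conditions did not overlap and stood in that order. The fitted log2 fold change against NC was 0.79 ± 0.18 (SE) for si-circ235-1 and 1.25 ± 0.18 for si-circ235-2, the values that the choice of the set rested on. Because bulk RNA was sequenced, more RNA per cell and more cells with the RNA cannot be told apart here or in any result that follows. The siRNAs differed by 0.46 ± 0.17 on the log2 scale, which did not pass edgeR's quasi-likelihood test (adjusted p = 0.0585). After correction for transcript length and GC content, described further on, the difference changed sign, to -0.36 ± 0.12 (adjusted p = 0.0399).

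AGO1, AGO3 and AGO4, which bind guide RNAs as AGO2 does, lie side by side on the plus strand of chromosome 1 in the order AGO4 (chr1:35808172-35857890), AGO1 (chr1:35869808-35930528) and AGO3 (chr1:35930718-36072500). AGO3 starts directly downstream of AGO1. AGO1 had 27.35 and 27.26 CPM in NC, 20.9 and 14.6 CPM in si-circ235-1, and 43.8 and 39.2 CPM in si-circ235-2. Its si-circ235-1 libraries lay below both controls and its si-circ235-2 libraries above them, with log2 fold changes of -0.62 ± 0.23 and 0.60 ± 0.22. After the correction the second of these changed sign, to -0.25 ± 0.20. Between the siRNAs AGO1 was higher by 1.23 ± 0.23 on the log2 scale in si-circ235-2 (edgeR adjusted p = 0.00228), which was not called after the correction (0.44 ± 0.21, adjusted p = 0.118).

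AGO4 had 10.4 and 13.1 CPM in NC, 11.1 and 14.8 CPM in si-circ235-1, and 30.4 and 29.7 CPM in si-circ235-2. Here the si-circ235-1 libraries overlapped the controls and only the other siRNA stood apart. AGO4 was higher in si-circ235-2 than in si-circ235-1 by 1.22 ± 0.24 on the log2 scale (edgeR adjusted p = 0.00323). AGO3 had 16.5 and 16.7 CPM in NC, 15.8 and 19.5 CPM in si-circ235-1, and 24.4 and 28.6 CPM in si-circ235-2. Its difference between the siRNAs, 0.58 ± 0.23, did not pass edgeR's test (adjusted p = 0.0607). So the 3 neighbouring genes were not alike under si-circ235-1, where AGO1 had a log2 fold change of -0.62, AGO4 of 0.13 and AGO3 of 0.09, although the differences among these genes were not tested.

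**Figure D1:**
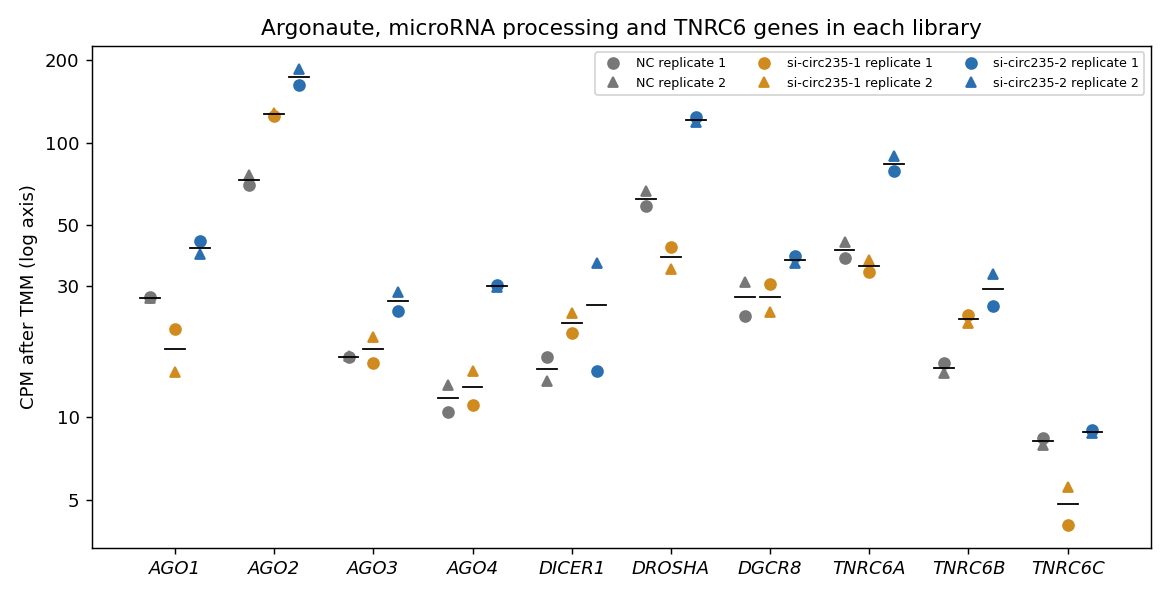
CPM after TMM of the 10 genes on a log axis in each of the 6 libraries, with circles for replicate 1, triangles for replicate 2 and a black bar for the mean of each condition. AGO2 steps up from NC (70.4 and 76.6 CPM) through si-circ235-1 to si-circ235-2 (162 and 186 CPM), DROSHA is lowest in si-circ235-1, and the si-circ235-2 replicates of DICER1 lie far apart.

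The make-up of the Argonaute family was compared within each library, as the share of each gene in the summed counts per kilobase. AGO2 made up 52.9% in both NC libraries, 68.9% and 68.0% in si-circ235-1, and 56.1% and 60.1% in si-circ235-2. The share was therefore highest under si-circ235-1, although the uncorrected level of AGO2 was highest under si-circ235-2. These shares were not corrected for length and GC content. With that correction the level of AGO2 was lower in si-circ235-2 than in si-circ235-1, at -0.36 ± 0.12 on the log2 scale. AGO1 held 20.9% ± 1.31 (SD, n = 2) of the family in NC, 12.2% and 8.24% in si-circ235-1, and 16.1% and 13.4% in si-circ235-2. With 2 libraries against 2, an exact permutation test cannot reach the 0.05 threshold, and these shares are given without a test.

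**Figure D2:**
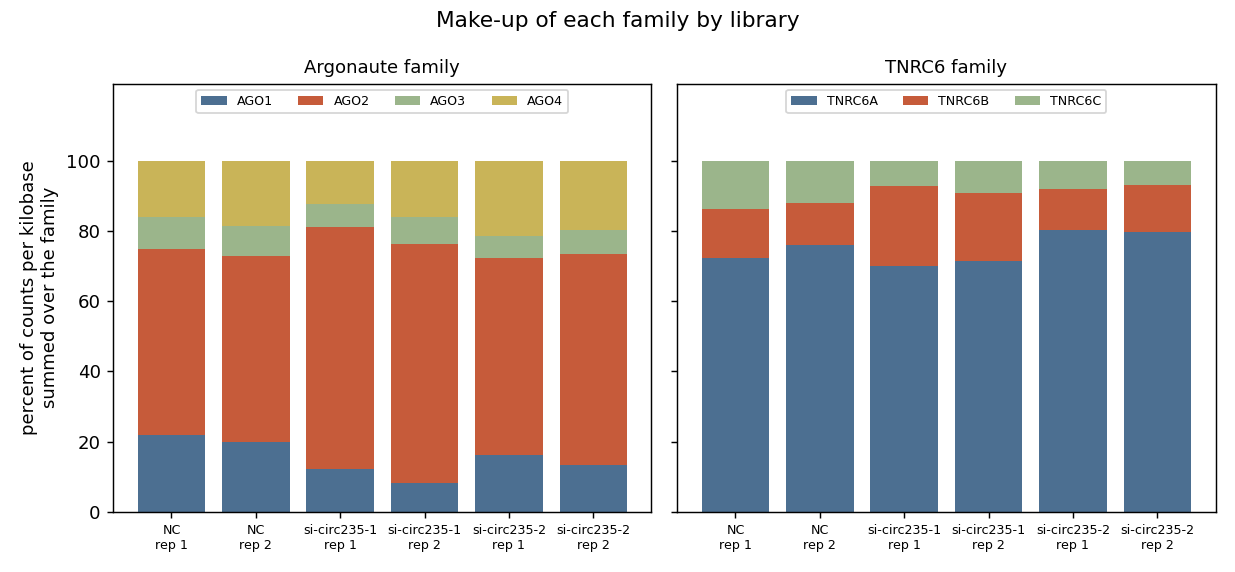
Share of each gene in the counts per kilobase summed over the Argonaute family (left) and the TNRC6 family (right), in percent, with 1 bar per library. AGO2 takes 52.9% of its family in both NC libraries and 68.9% and 68.0% in si-circ235-1, and TNRC6A holds over 70% of its family in every library.

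DROSHA (chr5:31400497-31532196, minus strand) had 58.6 and 66.7 CPM in NC, 41.8 and 34.8 CPM in si-circ235-1, and 124 and 119 CPM in si-circ235-2. The siRNAs thus stood on opposite sides of the controls without overlap, at log2 fold changes of -0.71 ± 0.19 and 0.95 ± 0.18. After correction for length and GC content the rise over NC in si-circ235-2 was 0.33 ± 0.13, which edgeR did not call (adjusted p = 0.0926). The fall in si-circ235-1 was then -0.73 ± 0.13 (edgeR adjusted p = 0.0109). The difference between the siRNAs, 1.67 ± 0.19 or 3.18-fold, was the largest among the 10 genes in the edgeR comparison (adjusted p = 0.000450). It passed the test with each of the 6 libraries left out in turn and after correction for length and GC content, at 1.06 ± 0.13 (adjusted p = 0.000745).

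DGCR8 (chr22:20080232-20111877, plus strand), the partner of DROSHA, had 23.5 and 31.2 CPM in NC, 30.5 and 24.2 CPM in si-circ235-1, and 38.6 and 36.4 CPM in si-circ235-2. NC and si-circ235-1 overlapped, and si-circ235-2 lay above both. The fitted difference between the siRNAs, 0.46 ± 0.22, did not pass edgeR's test (adjusted p = 0.125). The ratio of DROSHA counts to DGCR8 counts was 2.50 and 2.14 in NC, 1.37 and 1.44 in si-circ235-1, and 3.22 and 3.26 in si-circ235-2, so the 3 conditions did not overlap, and the ratio was not tested. TRMT2A, a gene on the opposite strand that overlaps DGCR8, had 1090 and 829 counts in NC, 669 and 978 in si-circ235-1, and 476 and 488 in si-circ235-2. Since the libraries carry no strand, reads of the shared stretch cannot be assigned to one of them, and the part of this overlap in the DGCR8 values was not tested.

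The DGCR8 transcript itself carries 2 microRNA hairpins, MIR3618 and MIR1306, in its second exon, and the complex of DROSHA and DGCR8 is known to cut this transcript. MIR1306 lies in the coding sequence, and miR-1306-5p (chr22:20086072-20086093, plus strand, GRCh38.p14, RefSeq) is printed as 1 of the 2 mature microRNAs of that hairpin, with its seed in capitals.
miR-1306-5p: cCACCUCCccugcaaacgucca
Both hairpins had 0 counts under their own identifiers in all 6 libraries, and uncut and cut DGCR8 RNA are not separated by counts per gene.

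DICER1 (chr14:95086228-95158010, minus strand) had 16.5 and 13.6 CPM in NC, 20.2 and 24.1 CPM in si-circ235-1, and 14.7 and 36.6 CPM in si-circ235-2. The si-circ235-1 libraries lay above both controls, while the si-circ235-2 replicates lay far apart, one between the controls and the other above every other library. These replicates held 249 and 765 DICER1 counts. The difference between the siRNAs was 0.21 ± 0.36 on the log2 scale (edgeR adjusted p = 0.660), and it ran from -0.59 to 0.72 when single libraries were left out. A direction for DICER1 under si-circ235-2 is therefore not given. DICER1 was not alone in this, since 532 of 10378 genes with a mean of at least 5 CPM were over 2-fold higher in replicate 2 than in replicate 1 of si-circ235-2 and 1 was over 2-fold lower. Those 532 genes had a median GC content of 37.7%, against 48.0% for all 10378, and DICER1 has 39.2%. AGO3 has 38.9%, and its si-circ235-2 replicates had 24.4 and 28.6 CPM. Whether GC content had a part in the spread of DICER1 was not tested.

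TNRC6 proteins are the scaffolds that link Argonautes to the deadenylases. TNRC6A (chr16:24610209-24827632, plus strand) had 38.1 and 43.3 CPM in NC, 33.9 and 37.5 CPM in si-circ235-1, and 78.9 and 89.2 CPM in si-circ235-2. It was just below the controls in the former and well above them in the latter, with log2 fold changes of -0.19 ± 0.19 and 1.05 ± 0.19. Between the siRNAs TNRC6A differed by 1.24 ± 0.19 (edgeR adjusted p = 0.00104).

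TNRC6B (chr22:40044817-40335808, plus strand) showed another order. It had 15.7 and 14.5 CPM in NC, 23.6 and 22.0 CPM in si-circ235-1, and 25.4 and 33.1 CPM in si-circ235-2. Both siRNAs stood above the controls, at log2 fold changes of 0.59 ± 0.23 and 0.95 ± 0.23. After the correction these values were 0.50 ± 0.17 and 0.10 ± 0.17. The difference between the siRNAs did not pass edgeR's test (0.36 ± 0.22, adjusted p = 0.216). TNRC6C (chr17:77959240-78108835, plus strand), the least abundant of the 10 genes in counts, had 8.40 and 7.95 CPM in NC, 4.06 and 5.58 CPM in si-circ235-1, and 8.97 and 8.75 CPM in si-circ235-2. Its si-circ235-1 libraries lay below the rest, and it was higher in si-circ235-2 than in si-circ235-1 by 0.87 ± 0.27 (edgeR adjusted p = 0.0249). TNRC6C missed the threshold when si-circ235-1 replicate 1 (0.66, adjusted p = 0.127), si-circ235-2 replicate 1 (0.85, adjusted p = 0.0632) or si-circ235-2 replicate 2 (0.89, adjusted p = 0.0550) was left out of the edgeR fit, and after the correction for length and GC content (0.12 ± 0.26, adjusted p = 0.725). TNRC6C-AS1, an antisense RNA that overlaps TNRC6C, held 88 to 144 counts in the 6 libraries, against 58 to 183 for TNRC6C, and reads of the shared stretch cannot be told apart.

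Within the TNRC6 family, TNRC6B held 13.8% and 11.8% of the counts per kilobase in NC, 22.6% and 19.3% in si-circ235-1, and 11.9% and 13.7% in si-circ235-2. TNRC6B thus took a higher share under si-circ235-1 alone, as AGO2 took its highest share there. TNRC6A kept 70.2% to 80.2% of its family in all 6 libraries.

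Counted over the set, genes were called at an adjusted p under 0.05 in edgeR. In si-circ235-1 against NC the set had 1 gene called higher (AGO2), where 2.24% of all tested genes were called higher, and 1 called lower (DROSHA), where 3.64% were called lower. The median log2 fold change of the 10 genes was 0.04, against -0.03 over all tested genes. Both calls were lost when NC replicate 1, NC replicate 2, si-circ235-1 replicate 1 or si-circ235-1 replicate 2 was left out, with the log2 fold change of AGO2 at 0.73 to 0.89 and that of DROSHA at -0.85 to -0.58 over the 6 fits that left out a library. Without si-circ235-1 replicate 2, edgeR called 0 of all genes in this comparison, while 2110 had an unadjusted p under 0.05.

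In si-circ235-2 against NC, 6 of the 10 genes were called higher (AGO2, AGO3, AGO4, DROSHA, TNRC6A and TNRC6B) and 0 lower, where 15.7% of all tested genes were called higher and 15.7% lower. The median log2 fold change of the set was 0.86. Without NC replicate 1 only AGO2 and TNRC6A were called. AGO3 was called in 1 of the 6 fits that left out a library, the one without si-circ235-2 replicate 1, at log2 fold changes of 0.55 to 0.78 over the 6. Since the choice of the set used these comparisons, and both share the NC libraries, nothing is read from the counts or from their likeness.

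The direct comparison of the siRNAs was not used in choosing the set. In si-circ235-2 against si-circ235-1, 5 of the 10 genes were called higher (AGO1, AGO4, DROSHA, TNRC6A and TNRC6C) and 0 lower, where edgeR called 21.1% of all tested genes higher and 18.6% lower. All 10 log2 fold changes were positive, with a median of 0.73 against 0.04 over all tested genes, but 6 of the 10 were positive after the correction for length and GC content. AGO1, AGO4, DROSHA and TNRC6A were called with each of the 6 libraries left out in turn.

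**Figure D3:**
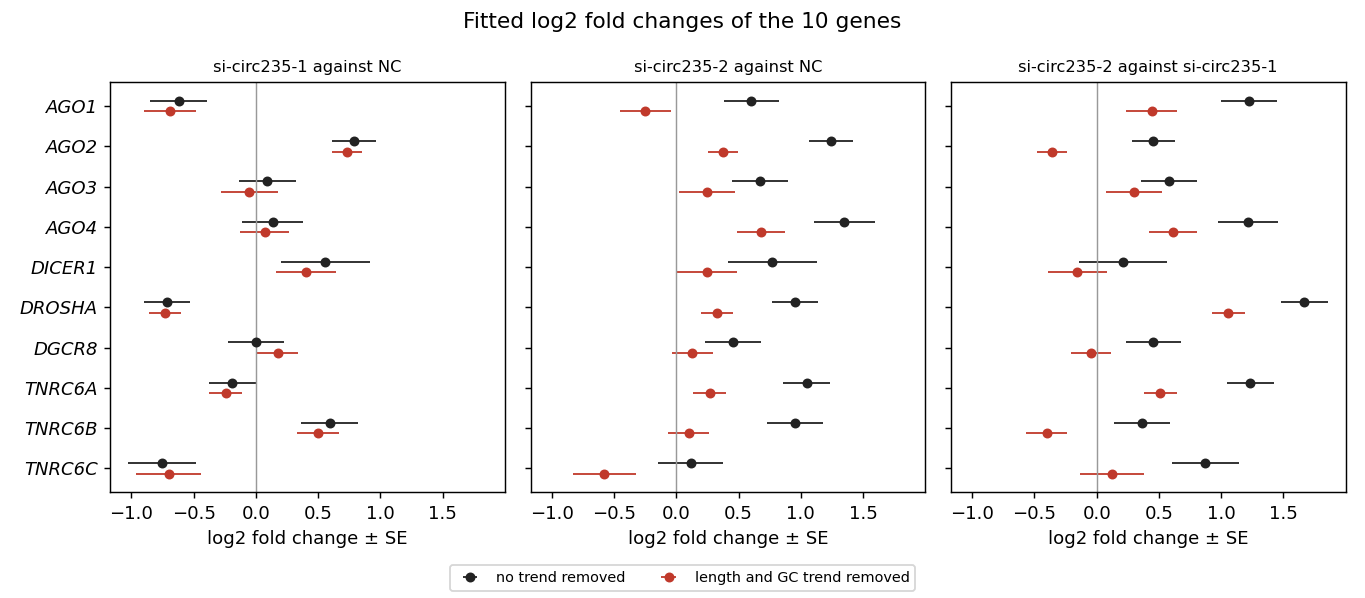
Fitted log2 fold changes of the 10 genes, with bars of 1 SE, in the 3 comparisons from edgeR, without (black) and with (red) correction of each library for transcript length and GC content. All black values of si-circ235-2 lie to the right of 0, while in red 2 of 10 against NC and 4 of 10 against si-circ235-1 lie to the left of it.

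The members are long genes, with longest transcripts of 4695 to 19687 nucleotides, and transcript length moved with the libraries of si-circ235-2. The 4228 tested genes within that range of length had a median log2 fold change of 0.43 in si-circ235-2 against NC and of 0.41 against si-circ235-1, and 33.0% and 36.2% of them were called higher. In the 3598 genes with the shortest transcripts, up to 2069 nucleotides, the median against NC was -0.57. In si-circ235-1 against NC the genes in the members' range had a median of 0.01, with 2.55% called higher. Set beside genes of like length, 5 of 10 members called higher between the siRNAs compares with 36.2%.

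**Figure D4:**
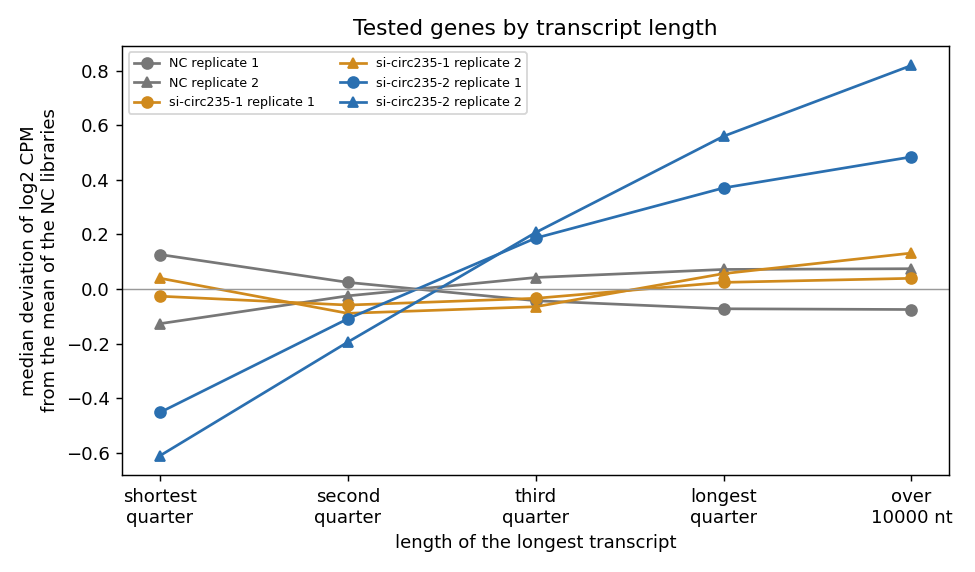
Median deviation of log2 CPM from the mean of the NC libraries, for tested genes in 4 classes of equal size by transcript length and for the 528 genes with the longest transcripts, from 10005 nucleotides, in each library. The si-circ235-2 lines climb with length, to 0.48 and 0.82 in the longest class, while those of si-circ235-1 end at 0.04 and 0.13.

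The smooth dependence of each library on length and GC content was then taken out (the trend removed). In si-circ235-2 against NC this left 2 of the 6 genes called higher, AGO2 at a log2 fold change of 0.38 ± 0.12 and AGO4 at 0.68 ± 0.19. Of all 14415 tested genes, that fit called 1615 higher and 2113 lower in this comparison. In si-circ235-1 against NC the values moved little, and AGO2 stood at 0.73 ± 0.12 and DROSHA at -0.73 ± 0.13. Between the siRNAs AGO4 (0.61 ± 0.19, adjusted p = 0.0320), DROSHA and TNRC6A (0.51 ± 0.13, adjusted p = 0.0137) were called higher in si-circ235-2 in this edgeR fit, and AGO1 and TNRC6C were not. AGO2, DICER1, DGCR8 and TNRC6B changed sign there, to between -0.40 and -0.05, and AGO2 alone of these was called. Over all tested genes the fit called 2477 higher and 3346 lower between the siRNAs. Whether the trend with length came from the cells or from the RNA and its handling was not tested.

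The partner genes stood in 5 lists, and 2 further lists held germ cell Argonautes and microRNA host genes. Together the lists held 109 genes, of which 91 were tested. In si-circ235-1 against NC, 2 of them were called higher and 4 lower, where 2.24% and 3.64% of all tested genes were. In si-circ235-2 against NC the counts were 20 and 9, beside 15.7% each way over all tested genes, and between the siRNAs 26 were higher in si-circ235-2 and 14 lower, beside 21.1% and 18.6%. The counts of the single lists that follow were not tested against these shares. The adjusted p values that follow are from edgeR over all 14415 genes.

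Among the 16 cofactors of processing and export, 3 were called higher and 2 lower in si-circ235-2 against NC, near the 15.7% each way of all tested genes. XPO5, which exports microRNA hairpins from the nucleus, rose by 0.61 ± 0.17 on the log2 scale (adjusted p = 0.0210), from 73.2 and 73.7 CPM in NC to 115 and 110 CPM. With the trend removed its value was 0.02 and was not called. TARBP2, the double-stranded RNA binding partner of DICER1, fell from 107 and 73.1 CPM in NC to 51.3 and 35.8 CPM in si-circ235-2, a log2 fold change of -1.05 ± 0.24 (adjusted p = 0.00845), and stood at 96.0 and 95.6 CPM in si-circ235-1. With the trend removed the fall against NC was -0.45 and was not called (adjusted p = 0.0529).

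ADAR, which edits adenosines in double-stranded RNA, was higher in si-circ235-2 than in NC by 1.09 ± 0.19 (adjusted p = 0.00322) and, with the trend removed, by 0.41 ± 0.12 (adjusted p = 0.0359). The helicase DDX17, a cofactor of DROSHA, and KHSRP, a protein that binds the loops of some hairpins, differed between the siRNAs. DDX17 was higher in si-circ235-2 by 1.14 ± 0.18 (adjusted p = 0.00134) and KHSRP by 1.08 ± 0.21 (adjusted p = 0.00248). KHSRP was lower in si-circ235-1 than in NC, at -0.87 ± 0.20 (adjusted p = 0.0365), as DROSHA was.

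Of 14 tested Argonaute partners, 4 were called higher and 2 lower in si-circ235-2 against NC, beside 15.7% each way over all tested genes. MOV10, an RNA helicase of the silencing complex, fell by 0.61 on the log2 scale (SE 0.19, adjusted p = 0.0334), and by 0.80 with the trend removed (adjusted p = 0.00806). The poly(A) binding protein gene PABPC1 rose by 0.66 ± 0.22 (adjusted p = 0.0391) and was not called once the trend was removed. WTIP, an Argonaute-binding LIM protein, fell, at -0.75 ± 0.22 (adjusted p = 0.0236).

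The 17 deadenylase genes act just downstream of the TNRC6 proteins. In si-circ235-2 against NC 3 of them were called higher, near the 15.7% of all tested genes, and 0 lower. CNOT1, the scaffold of the CCR4-NOT complex that TNRC6 proteins contact, had 37.0 and 73.8 CPM in NC, 59.4 and 33.5 CPM in si-circ235-1, and 268 and 327 CPM in si-circ235-2. The si-circ235-2 libraries stood far above all others, although the NC replicates also differed from each other. CNOT1 was higher than in NC by 2.42 ± 0.34, or 5.36-fold (adjusted p = 0.00197), and by 1.68 ± 0.29 with the trend removed (adjusted p = 0.00579). CNOT9, another subunit, was higher by 0.56 ± 0.17 (adjusted p = 0.0319), and not called with the trend removed. TOB2, an adaptor of the complex, had 51.6 and 62.0 CPM in NC, 31.7 and 25.6 CPM in si-circ235-1, and 103 and 107 CPM in si-circ235-2. It fell in the former (-0.99 ± 0.20, adjusted p = 0.0193) and rose in the latter (0.88 ± 0.19, adjusted p = 0.00726), the same order of conditions as for DROSHA, and the difference of 1.87 ± 0.20 passed as well (adjusted p = 0.000404).

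Of the 14 genes of decapping, repression and decay, 5 were called higher and 0 lower in si-circ235-2 against NC, beside 15.7% each way over all tested genes. DDX6, the helicase that represses deadenylated mRNAs, had 60.5 and 69.5 CPM in NC, 48.9 and 38.0 CPM in si-circ235-1, and 113 and 137 CPM in si-circ235-2. It rose by 0.94 ± 0.20 (adjusted p = 0.00665) and differed between the siRNAs by 1.52 ± 0.20 (adjusted p = 0.000683). PATL1, which joins DDX6 to the decapping enzyme, rose by 1.42 ± 0.26 (adjusted p = 0.00389). Both kept their calls with the trend removed. DCP2, the decapping enzyme itself, showed another order. It had 27.0 and 24.9 CPM in NC, 68.7 and 86.2 CPM in si-circ235-1, and 16.9 and 28.7 CPM in si-circ235-2. DCP2 rose under si-circ235-1 by 1.58 ± 0.26 (adjusted p = 0.0119) and was lower in si-circ235-2 than in si-circ235-1, at -1.76 ± 0.26 (adjusted p = 0.000949). In si-circ235-2 against NC it was not called, at -0.185 (adjusted p = 0.616).

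**Figure D5:**
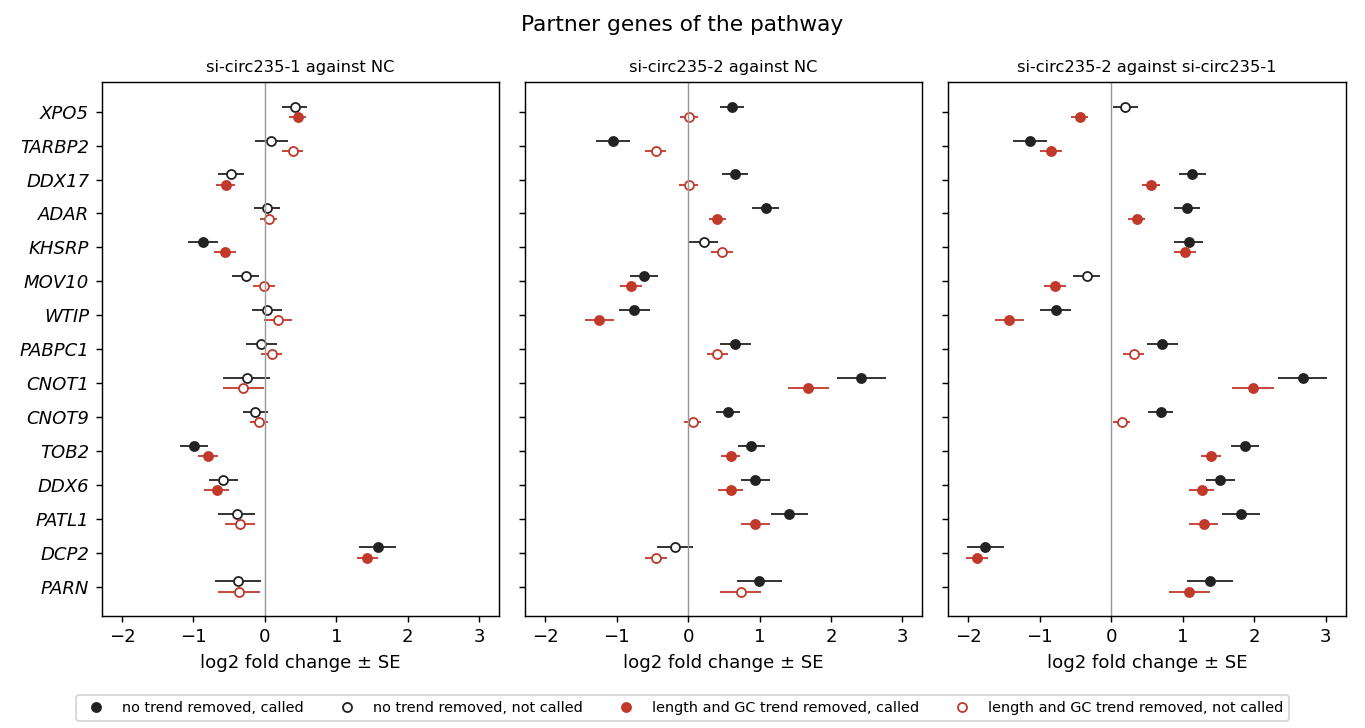
Log2 fold changes with bars of 1 SE for 15 partner genes in the 3 edgeR comparisons, without (black) and with (red) the correction for length and GC content, with filled points for genes called at an adjusted p under 0.05. CNOT1, TOB2, DDX6 and PATL1 stay filled in both colours in si-circ235-2 against NC, DCP2 is higher under si-circ235-1, and XPO5, DDX17, PABPC1 and CNOT9 lose their fill in si-circ235-2 against NC once that correction is made.

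Of the 6 tested genes that tail or trim microRNAs, 2 were called higher and 0 lower in si-circ235-2 against NC, beside 15.7% each way over all tested genes. PARN, a poly(A)-specific ribonuclease, rose by 1.00 ± 0.32 (adjusted p = 0.0359), and was not called with the trend removed (0.73, adjusted p = 0.0885). LIN28B, the block to let-7 maturation, had 0 counts in all 6 libraries. The germ cell Argonautes PIWIL1 and PIWIL3 also had 0 counts, PIWIL2 and PIWIL4 had at most 12 in a library, and none of the 4 was tested. AGO1 to AGO4 were therefore the Argonaute genes with appreciable counts in these cells.

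Single libraries decided several of these calls. In si-circ235-1 against NC, the calls of KHSRP, TOB2 and DCP2 were not made by edgeR without NC replicate 1, NC replicate 2 or si-circ235-1 replicate 2, with the highest adjusted p at 0.276, 0.200 and 0.164 in that order. In si-circ235-2 against NC, those of TARBP2, TOB2, DDX6 and PARN were not made without NC replicate 1, with adjusted p of 0.0975, 0.0842, 0.0760 and 0.282, and that of WTIP neither without NC replicate 1 (0.192) nor without si-circ235-2 replicate 2. XPO5 and DDX17 were called there in 2 of the 6 fits that left out a library and missed the threshold without NC replicate 1, NC replicate 2, si-circ235-2 replicate 1 or si-circ235-2 replicate 2. MOV10 was called in 2 of the 6, without NC replicate 2 or si-circ235-1 replicate 2, CNOT9 in 1 of the 6, without si-circ235-1 replicate 2, and PABPC1 in 0 of the 6, with adjusted p of up to 0.252, 0.184 and 0.263. CNOT1, PATL1 and ADAR were called in all 6, with adjusted p of at most 0.0279, 0.0363 and 0.0437. Between the siRNAs the differences printed for DDX17, KHSRP, TOB2, DDX6 and DCP2 passed in all 6.

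Over the 6 libraries, log2 CPM of AGO2 was closest to that of TNRC6B within the set (Pearson r = 0.971), and that of DROSHA to that of AGO1 (r = 0.975). Among 10373 genes with a mean of at least 5 CPM, the 5 genes most like AGO2 were ABL2, a tyrosine kinase (r = 0.997), G3BP2, a stress granule protein (r = 0.996), ZNF618 (r = 0.995), CLMN (r = 0.994) and LATS2, a kinase of the Hippo pathway (r = 0.994). These points share their libraries and fall into 3 conditions, so the values describe a common order of conditions and nothing more. Being picked for likeness to AGO2, all 5 also stood above NC under both siRNAs, which adds nothing to that likeness. Their log2 fold changes ran from 0.67 for CLMN to 1.20 for G3BP2 under si-circ235-1, where AGO2 had 0.79.

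Reads from paralogs could be divided wrongly only where sequence is shared. The longest transcripts of the 10 genes had no 50-nucleotide word in common with one another on the same strand. With transcripts of other genes, read on their own strand, the largest share was 1.36% of the words of AGO3. Overlaps with genes on the opposite strand, such as TRMT2A and TNRC6C-AS1, were not covered by this search.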

How the data were processed

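The sequenced samples were T24 cells under NC, si-circ235-1 and si-circ235-2, with 2 libraries per condition. Oligo dT beads enriched the RNA, and the libraries carry no strand information. The table the authors deposited holds raw counts per gene as whole numbers, with no normalization applied. Per the submitters' processing notes, FastQC, cutadapt, STAR and hg38 were used, without versions. For the counting tool and the annotation, names were not given in the sources used here. Conditions and replicate numbers came from the labels.

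A single edgeR 4.0.16 fit (R 4.3.3) took all 6 libraries with 1 mean per condition, after filterByExpr and TMM, and gave quasi-likelihood tests with Benjamini-Hochberg adjustment over 14415 genes and a threshold of 0.05. SEs are those of the fitted log2 fold changes. With 2 libraries per condition, their number limits precision more than counting error does. Counts were simulated from these libraries with known changes against NC, alike in both siRNA conditions. The fit recovered the size of these changes on average, but the share of false calls against NC ran above the threshold. The simulation held no change between the siRNAs and no trend with length or GC content, so recovery in those respects was not tested. GENCODE 29 (GRCh38) supplied symbols, the length and GC content of each longest transcript, and 3' UTRs. It held 99.5% of the identifiers, and the authors may have used another release.

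The members, the lists and the correction for length and GC content (splines with 5 degrees of freedom per library) were chosen with earlier results of these data known. Named were all members, XPO5, TARBP2, MOV10, CNOT1, DDX6 and LIN28B, up to 3 genes a list with the lowest p between the siRNAs among those called in at least 2 of the 3 comparisons, the 5 genes most like AGO2 and genes overlapping a member. Of the genes this rule names, 1 is not reported here. The results were recomputed with DESeq2 1.42.0, with library totals alone (no TMM factors), with all genes kept, with only the compared conditions in the fit, with a block for the replicate number, with the correction above and with each library left out.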

Additional observations from a re-analysis of the deposited data

How the results depend on the processing

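Of the 10 members, edgeR called 2 for si-circ235-1 against NC, 6 for si-circ235-2 against NC and 5 between the siRNAs. In that order, leaving out 1 library gave 0 to 2, 2 to 7 and 4 to 5. Without TMM factors 0 members were called in the first and 9 in the last, and corrected for length and GC content 2 in the second. Without TMM factors the median of all genes moved from -0.03, -0.0038 and 0.04 to -0.11, 0.25 and 0.37, and the split of all calls into higher and lower from 323 and 524, 2270 and 2260, and 3047 and 2678 to 179 and 529, 3173 and 1294, and 4534 and 1496. With the trend removed the splits were 1189 and 780, 1615 and 2113, and 2477 and 3346. Pathway genes called in si-circ235-1 against NC numbered 6, against 13 with DESeq2, 12 without the filter, 13 with 2 conditions alone, 16 with the trend removed and 0 to 11 without 1 library, and DESeq2 called 714 genes higher and 805 lower in all there. Without 1 library the pathway counts ran from 5 to 25 in si-circ235-2 against NC (29) and from 17 to 39 between the siRNAs (40), lowest without NC replicate 1 and without si-circ235-1 replicate 2. Log2 fold changes that changed sign with the trend removed were, in si-circ235-1 against NC, AGO3 (-0.0525) and DGCR8 (0.18), in si-circ235-2 against NC, AGO1 (-0.25) and TNRC6C (-0.58), and between the siRNAs, AGO2 (-0.36), DICER1 (-0.16), DGCR8 (-0.0464) and TNRC6B (-0.40). DGCR8 in si-circ235-1 against NC (-0.0012) was also 0.023 with DESeq2 and 0.0088 with 2 conditions alone. Leaving out 1 library gave, in si-circ235-1 against NC, -0.0693 to 0.23 for AGO3, -0.0913 to 0.35 for AGO4 and -0.19 to 0.26 for DGCR8, and for DICER1 -0.034 to 1.28 in si-circ235-2 against NC and -0.59 to 0.72 between the siRNAs. The causes were not tested.

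The labels give the conditions the same replicate numbers, but with 2 numbers the samples share only a number, and deviations of same-numbered libraries correlated at -0.094, 0.149 and 0.139. With a replicate block 2, 7 and 7 members were called. AGO1 was added in si-circ235-2 against NC, and AGO2 (0.45, adjusted p = 0.0381) and AGO3 between the siRNAs. The adjusted p of AGO2 between the siRNAs ran from 0.0079 without TMM factors to 0.316 without si-circ235-2 replicate 2.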

Other observations

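Of 35 microRNA host genes listed, 24 were tested, and edgeR called 3 higher and 5 lower in si-circ235-2 against NC and 0 higher and 2 lower in si-circ235-1 against NC. Over all tested genes these shares were 15.7% each way, and 2.24% and 3.64%. H19, an imprinted non-coding RNA that carries a microRNA hairpin, was outside the rule for named genes and was chosen after its values were seen. It had 34.6 and 27.7 CPM in NC, 10.1 and 6.25 CPM in si-circ235-1, and 6.08 and 4.54 CPM in si-circ235-2, so both siRNAs lay below both controls. Its log2 fold change was -1.93 ± 0.29 in si-circ235-1 (adjusted p = 0.0104) and -2.56 ± 0.30 in si-circ235-2 (adjusted p = 0.00179). With the length and GC trend removed it was -1.62 ± 0.21 (adjusted p = 0.00384) and -1.94 ± 0.21 (adjusted p = 0.00309). Leaving out NC replicate 1 or si-circ235-1 replicate 2 ended the first of these calls (adjusted p of up to 0.151), and the 2 siRNAs share the NC libraries.

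CTDSP1, a phosphatase gene whose intron holds miR-26b, fell in si-circ235-1 against NC by 1.52 on the log2 scale (SE 0.20, edgeR adjusted p = 0.00710), from 157 and 114 CPM to 49.4 and 45.1 CPM, and was not called without si-circ235-1 replicate 2 (adjusted p = 0.144). In si-circ235-2 it was lower by a log2 fold change of -0.68 ± 0.20 (adjusted p = 0.0244), which was not called with the trend removed. DLEU2, the host of miR-15a and miR-16, had 37 and 35 counts in NC, 41 and 74 in si-circ235-1, and 14 and 16 in si-circ235-2. It was lower in si-circ235-2 than in NC, at -1.51 ± 0.41 (adjusted p = 0.0189), and than in si-circ235-1, at -2.14 ± 0.41 (adjusted p = 0.00246). SREBF2, the host of miR-33a, was higher in si-circ235-2 than in NC by 0.57 ± 0.19 (adjusted p = 0.0387), and was not called with the trend removed (0.33, adjusted p = 0.109). In si-circ235-2 against NC, the calls of CTDSP1 and DLEU2 were not made when NC replicate 1 or either si-circ235-2 library was left out. That of SREBF2 was made in 1 of the 6 fits that left out a library, the one without NC replicate 2. Host transcripts were counted here, and mature microRNAs were not measured.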
